A study of Mus musculus with 6 samples.

Results

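The genes described here make, store and carry lipid: *Srebf1*, *Fasn*, *Acaca*, *Soat1*, *Lpin1*, *Apob*, *Apof* and *Lrp1*. They were chosen by name, and every probe set whose single annotated symbol is one of these 8 was taken. This gave 254 probe sets of 58919 tested, and 8 genes of 5017. The 5017 lie mainly on 5 chromosomes and do not cover the genome. Chromosome 11 held 1550 of them, chromosome 1 held 1144 and chromosome 10 held 944. Chromosome 13 held 645 and chromosome 12 held 635, and each other chromosome held at most 10. Shares of all genes given below refer to this set. A probe set is a small group of probes that reads about 1 exon, so most genes are read many times over: *Lrp1* by 89 probe sets, *Fasn* by 47, *Apob* by 34, *Lpin1* by 25, *Srebf1* by 20, *Soat1* by 19, *Acaca* by 18 and *Apof* by 2. *Fasn*, *Acaca* and *Srebf1* lie on chromosome 11, *Soat1* on chromosome 1, *Lpin1* and *Apob* on chromosome 12, and *Lrp1* and *Apof* on chromosome 10. All 8 symbols are current in the RefSeq gene table.

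Brain RNA came from 2 genotypes with 3 arrays each. The knockout arrays are labelled APPPS1-FVBxABCC1, an APPPS1 line crossed to loss of *Abcc1*, and the control arrays APPPS1-FVB. Both genotypes carry the APPPS1 transgenes, mutant human amyloid precursor protein and presenilin 1 driven by a neuronal *Thy1* promoter. Every array therefore comes from a transgenic line that models plaques, and no group lacks the transgenes. *Abcc1* encodes a transporter that pumps lipid-derived leukotrienes and glutathione conjugates out of cells. The labels give no sex, age, zygosity, brain region or batch, and no label ties an array to a single animal. The p-values therefore cover the spread between these 6 samples, which may be technical. *Abcc1* itself was not analysed here and could not check the labels. The 6 arrays had median log2 signals of 7.04 to 7.09 over the tested probe sets and correlated at 0.984 to 0.990 with each other. Their number limits the precision of every value.

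Fatty acid synthesis starts with the carboxylation of acetyl-CoA and ends with palmitate, and the sterol regulatory element-binding proteins switch on the genes of this path. Cholesterol that a cell does not need is esterified and kept in droplets. In the brain, astrocytes load cholesterol onto lipoprotein particles that neurons take up through receptors of the low-density lipoprotein family, among them LRP1, which also takes up amyloid peptide. Apolipoprotein B, the scaffold of plasma lipoproteins, is made chiefly by liver and gut.

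None of the 8 genes differed between knockout and control arrays past the test's threshold. With limma on each probe set, 0 of the 254 had an adjusted p below 0.05, against 0.00509% of all tested probe sets, and the smallest adjusted p was 0.557. At an unadjusted p below 0.05 there were 9 of the 254 (3.54%), against 7.69% of all tested. Of the 9, 3 were higher and 6 lower, against 4.75% higher and 2.94% lower of all tested. With a variance trend and robust moderation, 0 of the 254 passed and 17 had a raw p below 0.05, against 5279 of all 58919 in the same fit. The groups did not overlap in 23 of the 254 (9.06%), against 13.5% of all tested. In 10 the knockouts lay above, against 7.94% of all tested, and in 13 below, against 5.52%. Taken in either direction, both shares were under those of the whole table. The knockout mean was the higher for 130 probe sets, or 51.2%, and the lower for 123, against 52.0% higher and 47.2% lower over all tested. The median log2 difference was 0.0050 for the 254 and 0.010 for all. The smallest two-sided p that an exact permutation test of 3 against 3 arrays can give is 0.1.

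Averaged over all probe sets of each gene, 3 genes were higher and 5 lower in knockouts, against 48.2% higher and 51.4% lower over all genes, and limma called 0 of the 8, against 0.0% of all 5017 genes. None of the 8 had an unadjusted p below 0.05, against 14.1% of all genes. Adjusted p-values ran from 0.463 for *Soat1* to 0.915 for *Srebf1*. Quantile normalization and median centring turned no sign of these 8 means. In bulk tissue, fewer cells of a type and less RNA per cell cannot be told apart, and this holds for every value below.

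**Figure D1:**
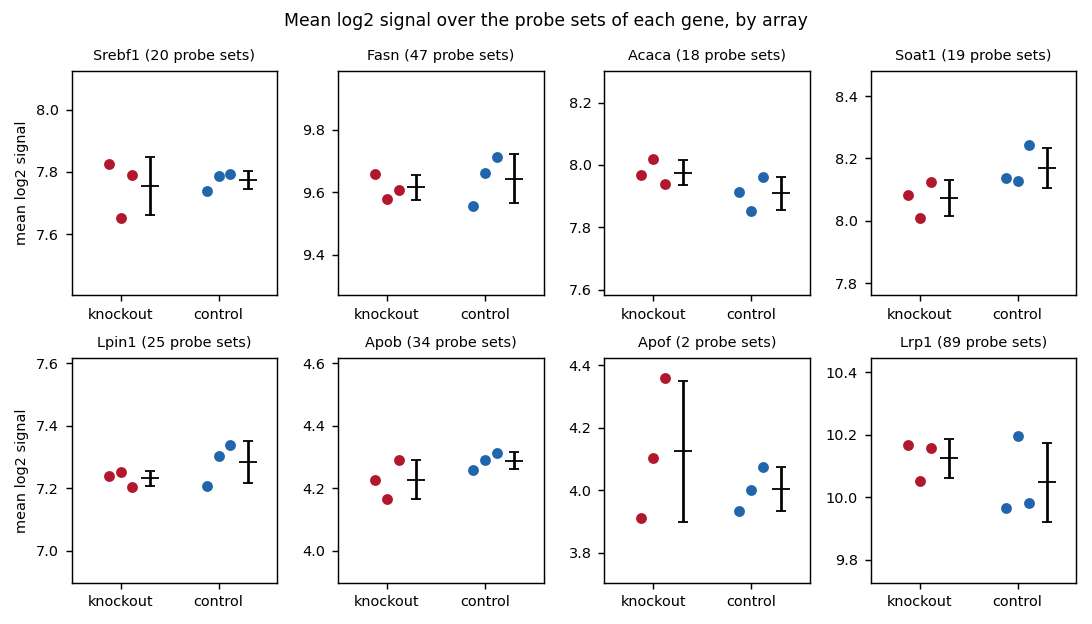
Mean log2 signal over the probe sets of each gene (y axis, the same span of 0.72 in every panel), with the 3 knockout arrays on the left and the 3 control arrays on the right; points are arrays, bars are mean ± SD (n = 3). Only the groups of Soat1 do not overlap, with knockouts between 8.01 and 8.12 and controls between 8.13 and 8.24.

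The regulator *Srebf1* encodes the transcription factor SREBP1, which drives fatty acid synthesis genes. Its mean over 20 probe sets was 7.82, 7.65 and 7.79 on the log2 scale in knockouts 1, 2 and 3, against 7.74, 7.79 and 7.79 in controls 1, 2 and 3. Knockout 2 was the lowest array and knockout 1 the highest, so the groups overlapped fully. The means were 7.76 ± 0.091 in knockouts and 7.77 ± 0.029 in controls (SD, n = 3 each). The log2 difference was -0.019 (SE 0.058, limma adjusted p = 0.915), with a 95% interval of 0.899 to 1.08 on the fold scale. It was 0.033 without knockout 2. Of the 20 probe sets, 10 were higher and 10 lower, and their differences ran from -0.33 to 0.25. The probe set of smallest raw p, 10386486, had 7.85, 7.76 and 7.67 in knockouts, against 7.91, 8.12 and 7.86 in controls. All its knockout values lay below its controls, though the nearest pair all but touched, and its limma adjusted p was 0.680. The brightest probe set of *Srebf1*, 10386490, differed by -0.017.

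*Acaca* and *Fasn* encode the enzymes of consecutive steps that SREBP1 controls: acetyl-CoA carboxylase makes malonyl-CoA, and fatty acid synthase builds palmitate from it. Their gene means pointed opposite ways, and neither passed the test. *Acaca* had 7.97, 8.02 and 7.94 in knockouts, against 7.91, 7.85 and 7.96 in controls. Knockout 3 lay below control 3 and the other knockouts lay above all controls. The log2 difference was 0.066 (SE 0.051, limma adjusted p = 0.583), a 95% interval of 0.965 to 1.14 on the fold scale. It was 0.038 without control 2.

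Of the 18 *Acaca* probe sets, 12 were higher and 6 lower in knockouts. Probe set 10379822 had the largest difference among all 254, at 1.02 (SE 0.54, limma adjusted p = 0.689). It read 3.79, 4.52 and 4.0 in knockouts, against 4.32, 2.68 and 2.26 in controls, so control 1 lay inside the knockout range. The difference was 1.63 without control 1 and 0.60 without control 3. Its mean signal of 3.60 lay under 4.19, the median of the array's control features, and it was the only *Acaca* probe set to do so. It was 1 of 254 (0.394%) with a difference of at least 1 in size, against 0.343% of all tested. The *Acaca* probe set of smallest raw p was 10379831, at 8.33, 8.01 and 8.06 in knockouts and 7.81, 7.78 and 7.86 in controls. Its groups did not overlap, and the log2 difference was 0.32 (SE 0.11, adjusted p = 0.602). The brightest *Acaca* probe set, 10379828, differed by 0.060. Taking the median signal of the 18 on each array instead of the mean gave -0.0083, of opposite sign. The median of the 18 single differences was 0.023.

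*Fasn* had 9.66, 9.58 and 9.61 in knockouts, against 9.56, 9.66 and 9.71 in controls, and all knockouts lay within the control range. The means were 9.62 ± 0.041 in knockouts and 9.64 ± 0.079 in controls (SD, n = 3 each). The log2 difference was -0.028 (SE 0.056, limma adjusted p = 0.854), with a 95% interval of 0.896 to 1.07 on the fold scale. Of 47 probe sets, 33 were lower and 14 higher as deposited. The number lower was 38 after either normalization and between 27 and 36 without 1 array. The probe sets share arrays and are not separate measurements of the animals.

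The *Fasn* probe set of smallest raw p was 10393972, with 8.79, 8.58 and 8.43 in knockouts, against 8.91, 8.98 and 9.18 in controls. Its groups did not overlap, and the log2 difference was -0.42 (SE 0.13, adjusted p = 0.581). At the other extreme, probe set 10394016 differed by 0.92 (SE 0.65) at a mean signal of 4.26, with knockouts at 5.26, 4.96 and 3.94 and controls at 3.38, 2.87 and 5.16. It was named for its size after its values were seen, and its groups overlapped. The brightest, 10394013, had a difference of 0.033, and the median signal of the 47 on each array gave 0.013, both of opposite sign to the mean. The median of the 47 single differences was -0.033.

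The start regions of *Fasn*, *Soat1* and *Lrp1* are shown because *Fasn* and *Lrp1* are read by the most probe sets and *Soat1* is the gene whose groups did not overlap. Each runs 5′ to 3′ from 250 bases before to 50 after the RefSeq start in GRCm38.p6. Capitals mark matches, on either strand, to 4 motifs: the sterol regulatory element TCACCCCAC, the CCAAT box CCAAT bound by NF-Y, the GC box GGGCGG bound by SP1, and the E-box CACGTG. The *Fasn* window is chr11:120824498-120824797 on the minus strand and holds 3 CCAAT matches, of which a pair overlaps. The *Soat1* window is chr1:156474279-156474578 on the minus strand, with 1 CCAAT and 1 GC box match. The *Lrp1* window is chr10:127621099-127621398 on the minus strand, with 1 GC box match.
Fasn: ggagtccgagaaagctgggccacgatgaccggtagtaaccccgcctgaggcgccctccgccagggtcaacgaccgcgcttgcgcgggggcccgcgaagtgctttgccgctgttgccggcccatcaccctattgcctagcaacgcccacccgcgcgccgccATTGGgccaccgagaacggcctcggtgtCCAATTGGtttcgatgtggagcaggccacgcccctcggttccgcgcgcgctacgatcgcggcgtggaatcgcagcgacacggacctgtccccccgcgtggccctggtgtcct
Soat1: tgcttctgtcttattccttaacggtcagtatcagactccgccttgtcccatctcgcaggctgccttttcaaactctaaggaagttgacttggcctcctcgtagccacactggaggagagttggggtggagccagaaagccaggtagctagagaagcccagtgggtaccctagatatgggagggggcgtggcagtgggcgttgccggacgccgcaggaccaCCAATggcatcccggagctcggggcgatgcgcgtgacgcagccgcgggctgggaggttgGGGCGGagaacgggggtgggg
Lrp1: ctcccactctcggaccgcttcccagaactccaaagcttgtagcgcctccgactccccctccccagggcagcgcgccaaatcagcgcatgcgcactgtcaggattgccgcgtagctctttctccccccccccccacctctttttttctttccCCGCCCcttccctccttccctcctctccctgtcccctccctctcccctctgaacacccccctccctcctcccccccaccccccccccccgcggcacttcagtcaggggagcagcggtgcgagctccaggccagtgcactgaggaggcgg
Of 32851 RefSeq start windows, 0.551% hold the sterol element letters, 37.4% CCAAT, 35.7% GGGCGG and 7.15% CACGTG. Windows were given for 7 of the 8 genes, 9 windows in all, with 3 for *Srebf1*. None of the 9 holds the sterol element letters or the E-box, 4 hold CCAAT and 4 hold GGGCGG. A match is a description of letters, and these windows leave out elements that lie further away. Other spellings of the motifs were not sought, so a lack of matches does not show that a window lacks binding sites.

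*Soat1* encodes the enzyme that esterifies cholesterol for storage in droplets. It was the single gene of the 8 whose groups did not overlap by the mean of its probe sets, against 20.2% of all 5017 genes in either direction and 8.85% with knockouts below. Its mean over 19 probe sets was 8.08, 8.01 and 8.12 in knockouts, against 8.14, 8.13 and 8.24 in controls. Knockout 3 and control 2 were nearly level. The means were 8.07 ± 0.058 in knockouts and 8.17 ± 0.064 in controls (SD, n = 3 each). The log2 difference was -0.098 (SE 0.056, limma adjusted p = 0.463), and the 95% interval of 0.855 to 1.02 on the fold scale includes no difference. Over the alternatives that left out 1 array the difference ran from -0.12 to -0.061.

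Of the *Soat1* probe sets, 15 of 19 were lower and 4 higher, against 47.2% lower of all tested. After quantile normalization 16 were lower, and after median centring 15. The number lower was between 12 and 15 without 1 array, and 12 without knockout 2. Cut into 3 runs of 7, 6 and 6 in the order of IDs, which was not matched to positions in the gene, the median log2 differences were -0.12, -0.093 and -0.11. The probe set of smallest raw p, 10359167, had 8.44, 8.52 and 8.31 in knockouts, against 8.80, 8.54 and 8.81 in controls. Its log2 difference was -0.29 (SE 0.11, adjusted p = 0.628), and the brightest, 10359172, gave -0.11 (SE 0.10).

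*Lpin1* encodes lipin 1, a phosphatidate phosphatase that makes diacylglycerol, the precursor of stored triglyceride. Its mean over 25 probe sets was 7.24, 7.25 and 7.20 in knockouts, against 7.21, 7.30 and 7.34 in controls. Control 1 lay with the knockouts. The log2 difference was -0.051 (SE 0.052, limma adjusted p = 0.689), a 95% interval of 0.888 to 1.05 on the fold scale. It was -0.089 without control 1 and -0.024 without control 3. Of the 25, 19 were lower and 6 higher, against 47.2% lower of all tested. The number lower was 19 after either normalization and 16 to 19 without 1 array.

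The summary of *Lpin1* turned on how its probe sets were pooled. The median signal over the 25 on each array gave a log2 difference of 0.18 (SE 0.073), higher in knockouts. By limma its raw p was 0.047 and its adjusted p 0.496. The mean and the brightest probe set (10399501, -0.037) were lower. Taken over the 25 single differences, the median was -0.043, also lower. The probe set with the smallest raw p, 10399483, had 7.27, 7.14 and 7.14 in knockouts, against 7.59, 7.58 and 7.39 in controls. These groups did not overlap, and the difference was -0.34 (SE 0.094, adjusted p = 0.560).

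**Figure D2:**
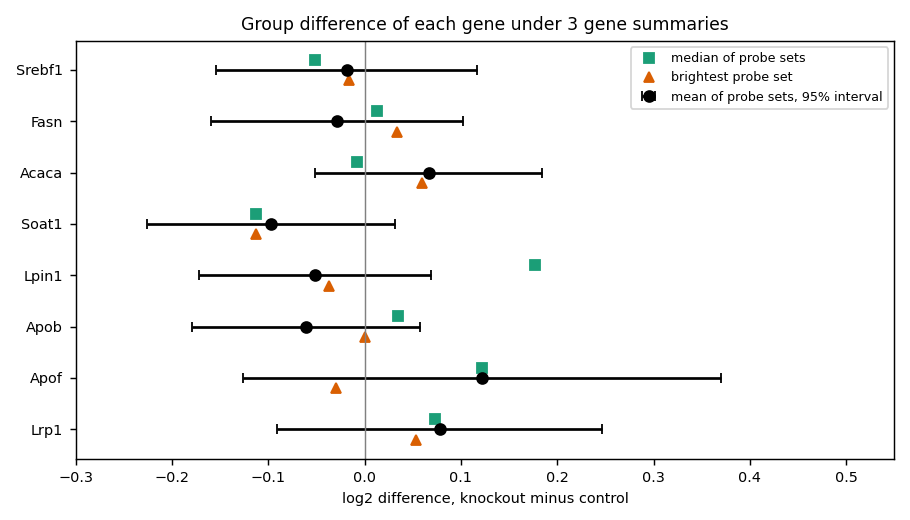
Log2 difference, knockout minus control (x axis), for each gene. Circles with 95% intervals are from the mean of its probe sets, squares from their median signal on each array, and triangles from its brightest probe set. All 8 intervals cross 0, and the median of Lpin1, at 0.18, stands apart from its mean at -0.051.

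Among the lipoprotein genes, *Apob* was read by 34 probe sets whose mean signals had a median of 4.17. Below 4.19, the median control feature, lay 17 of them, called dim here, and 17 lay at or above it. A probe's signal depends on its sequence and the table has no detection calls, so a low signal is not shown to be absence. Probe set 10394402 was the exception, at 9.87, 9.56 and 9.85 in knockouts, against 9.76, 9.80 and 9.72 in controls. The next brightest of *Apob* averaged 6.61. The log2 difference of 10394402 was 0.00 (SE 0.11), with a 95% interval of -0.26 to 0.26, so a difference of that size is not excluded.

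Over all 34 probe sets *Apob* averaged 4.23, 4.16 and 4.29 in knockouts, against 4.26, 4.29 and 4.31 in controls. The values of knockout 3 and control 2 were level. The log2 difference was -0.061 (SE 0.051, limma adjusted p = 0.612), a 95% interval of 0.883 to 1.04 on the fold scale. The median signal of the 34 on each array gave 0.035, and the median of the 34 single differences was -0.065. The difference of the mean was -0.030 without knockout 2 and -0.093 without knockout 3. *Apob* held 4 of the 9 probe sets with a raw p below 0.05, or 4 of its 34, against 7.69% of all tested. Of these, 10394401, 10394412 and 10394418 were lower in knockouts and 10394413 was higher, by 0.38. Both 10394413 and 10394418 were dim. The smallest raw p was at 10394418, with 2.95, 3.04 and 2.87 in knockouts and 3.38, 3.30 and 3.77 in controls. Its groups did not overlap, and its log2 difference was -0.53 (SE 0.14, adjusted p = 0.557) at a mean signal of 3.22. Of the 17 dim probe sets 11 were lower and 6 higher, and of the other 17, 10 were lower and 6 higher.

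*Apof* encodes apolipoprotein F, a plasma protein that in humans inhibits cholesteryl ester transfer. It was read by 2 probe sets, both near the control features. Probe set 10367222 had 3.73, 4.0 and 4.51 in knockouts, against 3.71, 3.71 and 4.0 in controls, and the brighter one, 10367223, had 4.09, 4.21 and 4.21 in knockouts, against 4.16, 4.29 and 4.15 in controls. The mean of both was higher by 0.12 (SE 0.11, limma adjusted p = 0.639), while 10367223 alone differed by -0.030. Without knockout 3 the mean of both differed by 0.0042, and without knockout 1 by 0.23. The interval of *Apof*, 0.916 to 1.29 on the fold scale, was the widest of the 8.

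The array's control features were higher on every knockout array than on any control array, and their part in the values of *Apob* and *Apof* was not tested. Their array medians averaged 4.25 ± 0.047 in knockouts and 4.12 ± 0.036 in controls (SD, n = 3 each). Of 14 listed hepatocyte genes 6 were measured, and 2 of them lay below the median control feature. Their mean log2 signal ran from 4.50 to 4.60 over the knockout arrays and from 4.52 to 4.62 over the controls. Their summed linear signal was 173 to 190 in knockouts and 171 to 202 in controls. For comparison, the 4 measured neuron markers averaged 10.59 to 10.66 in knockouts and 10.60 to 10.61 in controls.

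**Figure D3:**
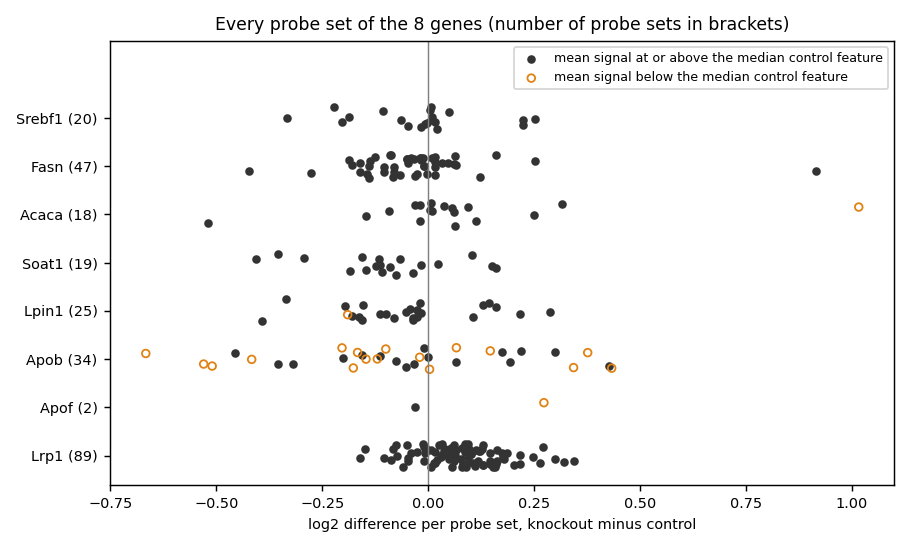
Log2 difference, knockout minus control, of every probe set of the 8 genes (x axis), with the number of probe sets in brackets; open circles are probe sets whose mean signal lies below the median control feature, and vertical scatter within a row carries no value. Most points lie within 0.3 of 0, and the extremes at 1.02 (Acaca) and -0.67 (Apob) are open circles.

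*Lrp1* encodes a large endocytic receptor that takes up apolipoprotein E particles and amyloid peptide. It was read by 89 probe sets, all brighter than the median control feature. Its mean was 10.17, 10.05 and 10.16 in knockouts, against 9.96, 10.19 and 9.98 in controls. Control 2 was the highest of all 6 arrays, and the other controls were the lowest. The means were 10.12 ± 0.063 in knockouts and 10.05 ± 0.13 in controls (SD, n = 3 each). The log2 difference of 0.078 had an SE of 0.073, a limma adjusted p of 0.666 and a 95% interval of 0.939 to 1.19 on the fold scale. It was 0.15 (SE 0.057) without control 2, 0.037 without control 1 and 0.045 without control 3.

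Single probe sets of *Lrp1* leaned the same way: 71 of 89 (79.8%) were higher, with 61 under quantile normalization and 65 under median centring. Bright probe sets leaned higher in general, since 58.2% of the 12694 tested with a mean signal of at least 9 had a higher knockout mean. The number was 84 without control 2 and 55 without control 1, so it moved with single arrays. All 3 knockouts lay above all 3 controls at 6 of the 89 and below at 0, against 7.94% above and 5.52% below of all tested. Cut likewise into 3 runs in the order of IDs, the median differences were 0.015, 0.11 and 0.080.

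No *Lrp1* probe set passed the test, and the differences ran from -0.16 to 0.34. That of smallest raw p, 10373285, had 11.52, 11.27 and 11.66 in knockouts, against 11.25, 11.19 and 10.98 in controls. Its groups did not overlap, and the log2 difference was 0.34 (SE 0.13, adjusted p = 0.632). The brightest, 10373260, had 12.27, 12.15 and 12.14 in knockouts, against 12.17, 12.10 and 12.13 in controls, a difference of 0.053.

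**Figure D4:**
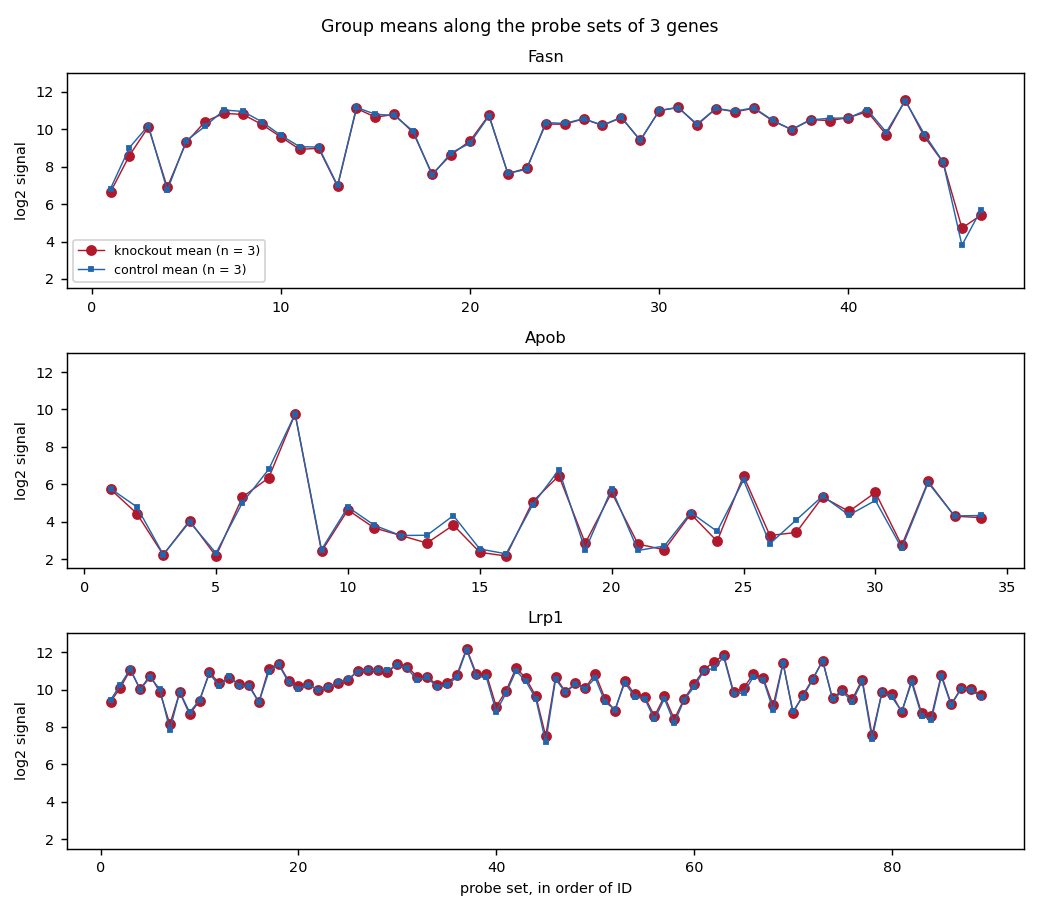
Mean log2 signal (y axis) of knockouts (circles, n = 3) and controls (squares, n = 3) at each probe set of Fasn, Apob and Lrp1, in the order of probe set IDs (x axis). The lines of both groups run close together over all 3 panels, including the single bright Apob probe set at 9.76.

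Whether an exon differed more than the rest of its gene was tested for the 252 probe sets of the 7 genes with at least 3. Of these, 0 passed with limma, against 0.0% of all 52573 such probe sets, and 8 (3.17%) had a raw p below 0.05, against 5.32%. The smallest adjusted p was 0.872, at *Fasn* probe set 10393972, whose difference from the rest of *Fasn* was -0.40 (SE 0.11). *Lpin1* held 3 of the 8, *Apob* 3, and *Fasn* and *Lrp1* 1 each.

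The wider lipid pathways were followed in 7 lists with 197 genes, of which 33 were measured, the 8 among them. The genes of the table lie mainly on 5 chromosomes, so the counts describe the measured genes and not whole pathways. None of the 33 passed with limma. Of the other 25, 18 (72.0%) were lower and 7 higher in knockouts, with 21 lower after quantile normalization and 19 after median centring. Over all 5017 genes, 51.4% were lower, 57.2% after quantile normalization and 60.8% after median centring. The median log2 difference of the 25 was -0.057, against -0.0044 for all genes. A raw p below 0.05 was reached by 7 of the 25 (28.0%), against 14.1% of all genes. All 7 were lower, against 6.12% of all genes, and without control 1 the number was 1. Without overlap between groups were 7 of the 25, of which 6 were lower and *Elovl2* was higher, against 20.2% of all genes.

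By list, the fatty acid synthesis genes were 6 of 8 lower with a median of -0.044. The largest gap outside *Acaca* and *Fasn* was at *Acsl3*, which activates fatty acids to acyl-CoA, with 9.61, 9.69 and 9.53 in knockouts, against 9.72, 9.74 and 9.79 in controls (log2 difference -0.14, SE 0.055, limma adjusted p = 0.332). *Elovl2*, an elongase of polyunsaturated fatty acids, was at 0.065 (SE 0.049), with its groups apart. The sterol synthesis genes were 3 of 4 lower with a median of -0.14, and 4 of 4 under both normalizations. There *Hsd17b7*, an enzyme of cholesterol synthesis, had 7.66, 7.66 and 7.79 in knockouts, against 7.80, 7.81 and 7.97 in controls (-0.15, SE 0.066), and *Idi2*, an isopentenyl diphosphate isomerase, had a low mean signal and a difference of -0.12 (SE 0.057).

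All 6 measured sterol regulation genes were lower as deposited, *Srebf1* among them, with a median of -0.075. They were also all lower under both normalizations, but 3 of 6 by the brightest probe set, where the median was 0.0. *Npc2*, the lysosomal cholesterol carrier, had 8.32, 8.19 and 8.19 in knockouts, against 8.36, 8.44 and 8.45 in controls, a log2 difference of -0.18 (SE 0.057). Its limma adjusted p of 0.252 was the smallest of the 33. *Mlx*, the partner of carbohydrate-responsive transcription factors, had 8.60, 8.69 and 8.53 in knockouts, against 8.86, 8.73 and 8.80 in controls (-0.19, SE 0.062, adjusted p = 0.258). In both genes all knockouts lay below all controls, and neither passed.

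The storage list was 3 of 5 lower with a median of -0.051. By the median signal of each gene's probe sets on each array 2 of 5 were lower, with a median of 0.093. Without the lowest tercile of probe sets by mean signal 2 of 4 were lower, with a median of -0.0017. *Mogat1*, a monoacylglycerol acyltransferase, had a low mean signal and a log2 difference of -0.22 (SE 0.094), and *G0s2*, an inhibitor of lipolysis, was at 0.092 (SE 0.081) and at 0.0 without control 3. Of the apolipoprotein and assembly genes 3 of 5 were higher with a median of 0.072. Of those left without that tercile, 1 of 4 was higher, with a median of -0.044. By all probe sets, *Apoa2*, a component of high-density lipoprotein, was at 0.22 (SE 0.13), at 0.052 without knockout 2 and at 0.0067 by its brightest probe set. *Apoh*, a phospholipid-binding plasma protein, was at 0.072 (SE 0.070). *Lrp11* was the single other lipoprotein receptor measured, at 0.026 (SE 0.054), and at -0.0028 under quantile normalization. All 3 fatty acid oxidation genes were lower with a median of -0.14, and 2 of 3 without control 3 or by the brightest probe set. *Acadl*, the long-chain acyl-CoA dehydrogenase, had 7.79, 7.91 and 7.73 in knockouts, against 8.0, 7.95 and 8.0 in controls (-0.17, SE 0.059, limma adjusted p = 0.279), and *Eci2*, an enoyl-CoA isomerase, was at -0.14 (SE 0.058).

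Astrocytes make much of the brain's cholesterol, and markers of cell types were read on the same arrays. Of 10 listed astrocyte genes 6 were measured, with a median log2 difference of -0.18. Differences ran from -0.48 for *Gfap* to 0.044 for *Sox9*, and *Aldoc* was at -0.016. The summed linear signal of the 6 was 5903 to 6381 in knockouts and 6463 to 7119 in controls, without overlap. Their mean log2 signal was 9.659 to 9.825 in knockouts and 9.824 to 9.996 in controls, which overlapped. With limma 0 of the 6 passed, and 3 had a raw p below 0.05, against 14.1% of all genes. These were *Kcnj10* at -0.26, *S100b* at -0.21 and *Gja1* at -0.15. In each of the 3 all knockouts lay below all controls, against 8.85% of all genes. The groups of *Gfap*, *Aldoc* and *Sox9* overlapped. *Cd68*, the single microglial marker measured of 12, had 7.54, 6.68 and 7.39 in knockouts, against 7.71, 7.47 and 7.66 in controls. *Slc4a1*, the red cell anion exchanger, was the single red cell marker measured of 9. It summed to 30 to 33 in knockouts and 38 to 44 in controls, a log2 difference of -0.36. By the mean of its probe sets all knockouts lay below all controls, against 8.85% of all genes. Its brightest probe set was at 0.24, of opposite sign. The 3 measured vascular and meningeal markers summed to 719 to 787 in knockouts and 775 to 965 in controls. The 2 measured choroid plexus markers summed to 544 to 623 in knockouts and 531 to 560 in controls. They differed in sign, with *Kcnj13* at 0.21 (limma adjusted p = 0.284) and *Ace* at -0.025 (limma adjusted p = 0.866). The part of these markers in the lipid gene values was not tested.

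**Figure D5:**
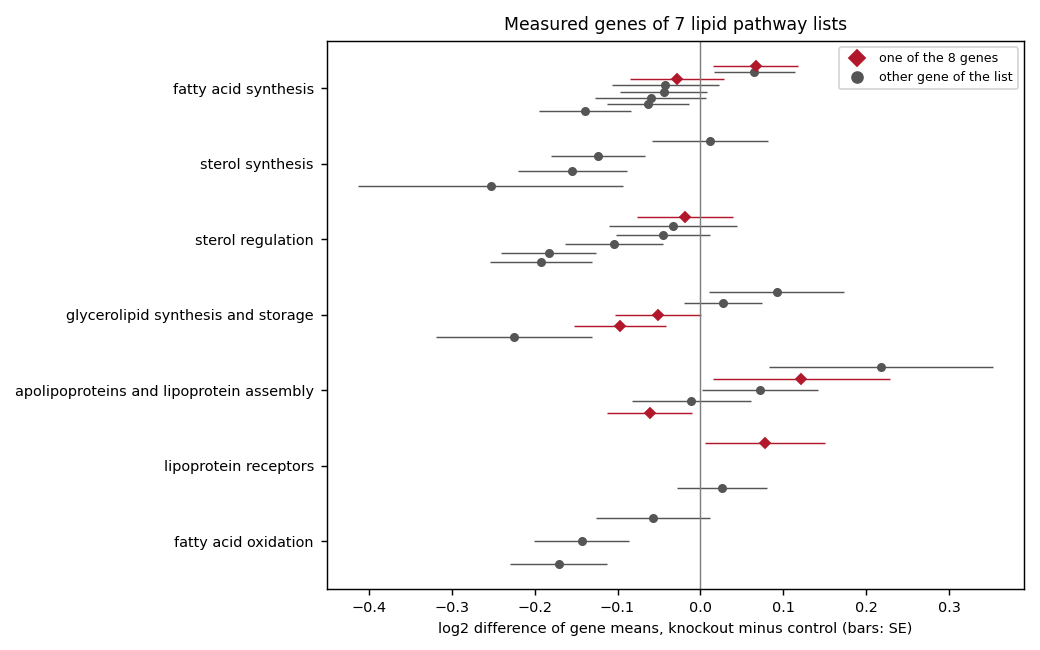
Log2 difference of gene means, knockout minus control (x axis, bars are SE), for the 33 measured genes of 7 lipid pathway lists; diamonds are the 8 genes described above, circles the others. All 6 sterol regulation genes and all 3 fatty acid oxidation genes lie left of 0 by the mean of probe sets (3 of 6 and 2 of 3 by the brightest), and none of the 33 passed the test.

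The genes whose means followed each of the 8 most closely over the 6 arrays were sought by Pearson's correlation among 2314 or 2315 genes with at least 3 probe sets and at least the signal of the median gene. These were *Itga3* for *Srebf1* (r = 0.965), *Heatr1* for *Fasn* (r = 0.968), *Vxn* for *Acaca* (r = 0.996) and *Nt5c* for *Soat1* (r = 0.993). They were *Sgk1* for *Lpin1* (r = 0.951), *Zzef1* for *Apob* (r = 0.986), *Ppfia2* for *Apof* (r = 0.951) and *Rims1* for *Lrp1* (r = 0.980). The values are a description of 6 arrays that share their scaling. Between 5 and 44 genes reached an r of at least 0.9 with each of the 8, so the top gene had close company.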

How the data were processed

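Total RNA of brain was profiled on 6 single-channel Affymetrix arrays, 3 knockout and 3 control. The values are log2 signals per exon-level probe set as the authors deposited them. Per the submitters' processing notes they were made with MAS5. The version, the genome build and the scaling between arrays are not given in the sources used here. Of 65535 rows analysed here, 6616 precede in ID order any probe set with a symbol. These were treated as the array's control features and left out. Of 58919 tested probe sets, 53644 carried 1 gene symbol, and symbols were updated with the RefSeq gene table of GRCm38.p6.

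Knockout minus control was fitted with limma 3.58.1 in R 4.3.3 (lmFit and eBayes, two-sided), for each probe set, for the mean of each gene's probe sets, and for each probe set's log2 signal minus the mean of the other probe sets of its gene. P-values were adjusted (Benjamini-Hochberg) over all features, with a threshold of 0.05. The 8 genes and the lists were chosen with earlier results of these data known. All 8 were named, each with its brightest probe set, its probe set of smallest raw p and any differing by at least 1. From each of 7 lipid lists the 2 other genes of smallest raw p were named. The gene of highest correlation was named for each of the 8. Scripts were tested on simulated data.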

Additional observations from a re-analysis of the deposited data

How the results depend on the processing

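Of the 254 probe sets, of the 252 tested against the rest of their gene, of the 8 genes and of the 33 lipid list genes, 0 passed under any alternative run: quantile normalization, median centring, leaving out probe sets in the lowest tercile of mean signal, trend with robust moderation, array weights, the replicate block, each array left out, an adjusted p below 0.1 and, for genes, the brightest probe set and the median. Raw p below 0.05 was reached by 8 to 17 of the 254 probe sets over these settings. Of the 8 genes, 1 reached it without knockout 1 and 1 without control 2, against 602 and 787 of all 5017 genes. By the median signal of probe sets 1 of the 8 reached it, and in the other settings 0. Leaving out that tercile left 211 of the 254 and 7 of the 8 genes, since *Apof* has none above that limit. Signs turned for some genes, and the cause was not tested. With array weights *Srebf1* was at 0.013 and *Fasn* at 0.013. With the median signal of probe sets on each array *Fasn* was at 0.013, *Acaca* at -0.0083, *Lpin1* at 0.18 and *Apob* at 0.035. By the same summary *Apoh* was at -0.020 and *Lrp11* at -0.035. With the brightest probe set *Fasn* was at 0.033, *Apof* at -0.030, *Apoh* at -0.077 and *G0s2* at -0.017. Without the lowest tercile *Apoh* was at -0.077, and after quantile normalization *Lrp11* was at -0.0028. Without 1 array, differences ran from -0.053 to 0.033 for *Srebf1*, from -0.072 to 0.0063 for *Fasn* and from -0.0038 to 0.062 for *Lrp11*. Same-numbered arrays did not deviate together (r of deviations 0.037, -0.070 and -0.10), and the replicate block called 0 of the 254, 10 at raw p below 0.05. Of the 8 genes, *Apob* and *Apof* had median probe set signals nearest the median control feature, at 4.17 and 4.06 against 4.19. What this does to their values was not tested. The counts by probe set direction, the list counts and the settings for single probe sets and list genes were added after seeing the data.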
